A study of Mus musculus with 2 samples.

Results

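Open chromatin at the 3' ends of genes was described in MN1, an immortalized mouse cell line of strain B6NCrl. For each of 2 libraries the authors deposited a list of peaks of 150 bp and a list of the wider hotspots around them. Both libraries are DNase-seq, in which DNase I cuts exposed DNA more often than DNA wrapped in nucleosomes. They are biological replicates 1 and 2 of 1 group, cells given 10 nM methyltrienolone, a synthetic androgen. The labels trace both to the same donor and give no tissue, no age and no sex. Since no untreated library was analysed here, every value is a level in treated cells of 1 line.

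The sites were chosen by position. Overlapping peaks (1 bp or more) were joined, and a joined interval with a peak of each replicate is called a shared region, of which there were 127806. A shared region was kept when it lay on an autosome, when its centre was within 1 kb of the annotated 3' end of a protein-coding gene (GENCODE M21), when that centre was more than 2.5 kb from every annotated transcription start site (TSS), and when no part of it touched coding sequence (CDS). This left 1731 regions, 1.35% of all shared regions and 2.38% of the 72706 autosomal shared regions that were distal from a TSS and outside CDS. Applied to each list alone, the same rule gave 2627 peaks in replicate 1 and 2342 in replicate 2. The remaining 70975 distal regions are the comparison set throughout, and 11800 of them lay within 10 kb of a 3' end. No score entered the choice.

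The 3' end of a protein-coding gene is where the nascent transcript is cleaved and given its poly(A) tail. Cleavage factors read a hexamer, AATAAA or the weaker ATTAAA, a short distance before the cut, and RNA polymerase II goes on transcribing past it until it terminates. DNA around these ends is AT-rich and is known in many cell types to be poor in nucleosomes at the cleavage site itself. Open sites nearby can also be enhancers, binding sites of the insulator protein CTCF, or starts of unannotated transcripts, and position does not tell these apart.

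The sequences of 4 of the highest-scoring sites downstream of a gene show what such a site looks like. Each is the central 150 bp on build mm10, read 5' to 3' on the plus strand, which is also the strand of the gene, and capitals mark 1 match of each motif counted further on.
Fhl3, chr4:124709086-124709235: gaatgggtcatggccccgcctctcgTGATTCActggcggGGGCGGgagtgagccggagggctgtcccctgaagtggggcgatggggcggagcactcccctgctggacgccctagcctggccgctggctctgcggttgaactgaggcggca
Atf6b, chr17:34655716-34655865: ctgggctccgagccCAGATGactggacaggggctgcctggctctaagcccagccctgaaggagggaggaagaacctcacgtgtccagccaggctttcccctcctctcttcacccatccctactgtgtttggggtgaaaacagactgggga
Dnajb12, chr10:59899716-59899865: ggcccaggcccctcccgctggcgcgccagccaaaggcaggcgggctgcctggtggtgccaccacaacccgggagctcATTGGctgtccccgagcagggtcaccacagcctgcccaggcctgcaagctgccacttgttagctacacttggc
Ctdsp1, chr1:74397416-74397565: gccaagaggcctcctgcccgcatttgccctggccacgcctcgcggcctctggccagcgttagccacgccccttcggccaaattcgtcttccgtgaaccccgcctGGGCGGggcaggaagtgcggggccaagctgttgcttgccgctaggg
The Fhl3 window held an AP-1 match (TGANTCA) and a GC box of SP and KLF factors (GGGCGG), whose letters occur again in lower case further along the window. The Atf6b window held an E-box of the NEUROD type (CAGATG), the Dnajb12 window a CCAAT box of NFY, read here on the opposite strand, and the Ctdsp1 window a GC box. Their GC content was 70.0%, 60.7%, 69.3% and 69.3%, beside a median of 52.7% over all 1731 regions.

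Shorter stretches show the motif matches in the highest-scoring regions that held one. The motif is in capitals with the neighbouring bases in lower case, and the sequence is on the strand where the match was read. For CTCF, a zinc finger protein that stops cohesin and so anchors chromatin loops, a 14-letter motif with at most 1 mismatch was sought.
Ccdc97, chr7:25711937-25711958, plus strand: gtggCCAGCTGGGGGCAGggac
Ripor1, chr8:105622562-105622583, plus strand: gtcgCCACCAGGGGGCAGcaga
Csrp1, chr1:135753084-135753105, minus strand: atggCCAGCAGAGGGCAGcctg
Ror2, chr13:53109748-53109769, plus strand: tccgCCAGCAGGGGGCTCacgg
For AP-1, the dimers of Jun and Fos proteins that answer to growth signals and activity, the match was exact.
Fhl3, chr4:124709107-124709121, plus strand: ctcgTGATTCActgg
Ccdc97, chr7:25711866-25711880, plus strand: tggcTGAGTCAcagg
Dlx2, chr2:71543178-71543192, plus strand: tgagTGACTCAcgcc
Gcgr, chr11:120539489-120539503, plus strand: agaaTGACTCAcctg
For nuclear factor I (NFI), a family of dimeric factors active in brain and other tissues, a 15-letter motif with at most 1 mismatch was sought.
Shisa8, chr15:82206621-82206643, plus strand: ggggGTGGCCCTGGGCCAAtctg
Ung, chr5:114139315-114139337, plus strand: acaaTTGGCGGTGTGCCGActat
Lhfpl4, chr6:113167141-113167163, plus strand: tgcgTTGGCAACGTGCCCAgtta
Cst6, chr19:5345420-5345442, plus strand: gcttTTGGGAGAGGGCCAAagac
For early B-cell factors (EBF), which act in neurons as well as in B cells, the match to a 10-letter motif was exact.
Plvap, chr8:71498035-71498052, plus strand: aaacTCCCAAGGGAgctg
Ccdc184, chr15:98170615-98170632, plus strand: gtacTCCCCGGGGAgtca
Mesd, chr7:83900704-83900721, plus strand: agtgTCCCCTGGGAccac
A4galt, chr15:83227055-83227072, plus strand: actgTCCCAGGGGAggaa
For the androgen response element (ARE), the inverted repeat bound by the receptor that methyltrienolone activates, a 15-letter motif with at most 2 mismatches was sought.
Rrp1, chr10:78399500-78399522, plus strand: tctgAGAATATCCTGTTATctca
Smarcd1, chr15:99714448-99714470, plus strand: ggctGGAACAAGCTGTCCTttgg
Dand5, chr8:84815636-84815658, plus strand: ccccAGAACAGGGTCATCTttgc
Tgfb3, chr12:86057254-86057276, plus strand: agaaAGAACGGATTGTCCTtaat
Ccdc97 appears under both CTCF and AP-1, since its region held a match of each. A match is a description of the letters and does not show that the factor was bound.

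Regions at 3' ends were 2.00 times as dense as distal regions elsewhere. They were hardly denser than those 1 to 10 kb downstream, and somewhat denser than those 1 to 10 kb upstream. Within 1 kb of a 3' end there were 70.9 shared regions per Mb of sequence that the rule allows (1731 regions in 24.4 Mb), against 35.4 per Mb in all other allowed sequence. Peaks of replicate 1 alone gave a ratio of 1.93 and those of replicate 2 a ratio of 1.99 (mean 1.96 ± 0.0422, SD, n = 2). From 1 to 10 kb downstream of a 3' end the density was 68.4 per Mb, a ratio of 1.04, or 1.08 in each replicate. From 1 to 10 kb upstream it was 59.3 per Mb, a ratio of 1.19, or 1.20 in replicate 1 and 1.21 in replicate 2. With 1 group of 2 libraries no test between conditions was possible, and these ratios are given with the spread of the replicates alone.

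The density was not even across the 2 kb window. Downstream of the 3' end, outside the gene, 1019 regions gave 76.0 per Mb, and upstream of it, inside the gene, 712 regions gave 64.7 per Mb, a ratio of 1.17. The same ratio was 1.22 in replicate 1 and 1.13 in replicate 2. In the 100 bp on either side of the 3' end itself the density was lower, 38.4 per Mb (100 regions in 2.60 Mb). At 100 to 1000 bp it was 68.0 per Mb upstream and 80.2 per Mb downstream. In replicate 1 the peaks numbered 58.8 per Mb within 100 bp, against 102 upstream and 123 downstream. In replicate 2 they numbered 64.9 per Mb, against 93.5 and 105. For shared regions the density within 100 bp was 0.513 of that farther out. With overlapping peaks of a single replicate joined, this ratio was 0.508 for replicate 1 and 0.651 for replicate 2. The density within 100 bp lay below both sides in each library.

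The density was lower at the end than on its sides in each group of genes counted, and the size of the dip varied. Where the gene's own promoter was open the ratio was 0.486, and where it was not, 0.618 on 20 regions. With a poly(A) hexamer in the last 50 bases of the gene it was 0.501 (76 regions). Without one it was 0.558 (24 regions), and 0.742 in replicate 1 and 0.852 in replicate 2, where more peaks of a single list lay at such ends. GC content moved with the dip on one side: it was 36.3% in the last 100 bp of these genes and 42.2% in the next 100 bp, against 43.0% to 45.3% in the other 100 bp steps. The part of base composition, or of DNase I preference and read placement in AT-rich sequence, was not tested.

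**Figure D1:**
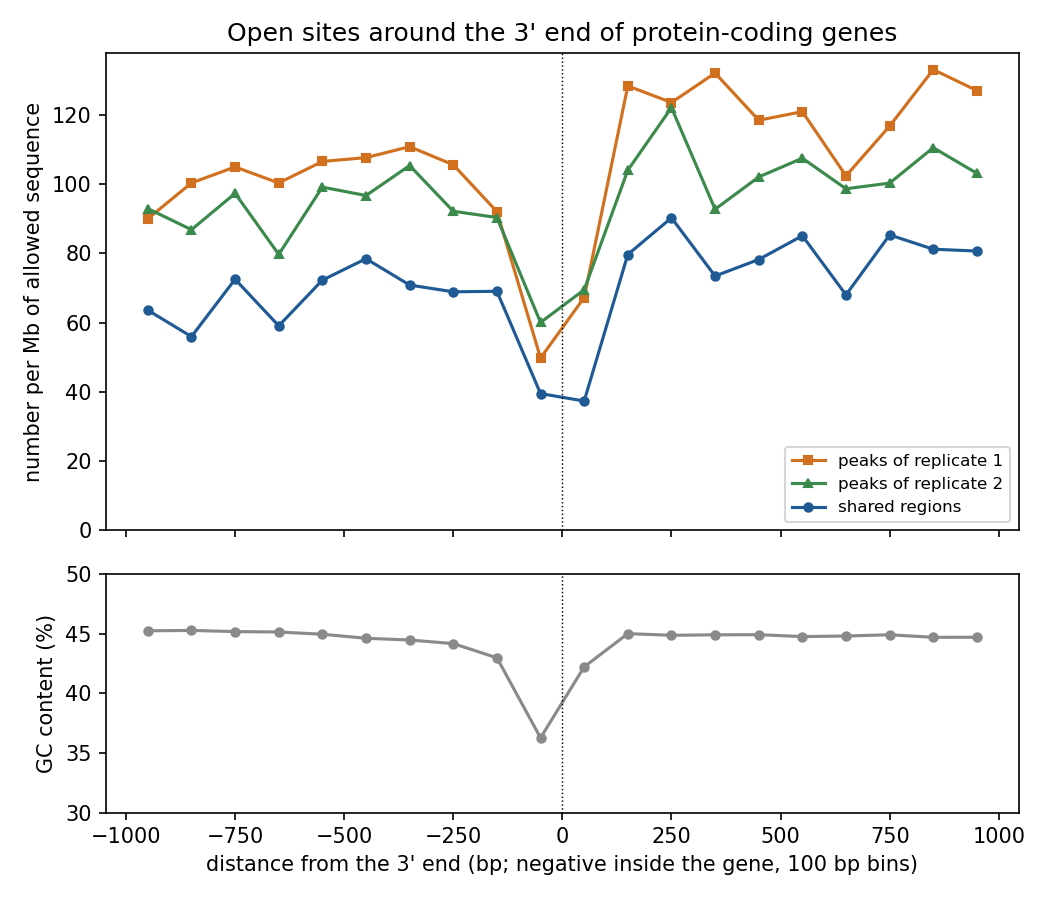
The upper panel plots the number of shared regions (blue), peaks of replicate 1 (orange) and peaks of replicate 2 (green) per Mb of allowed sequence in 100 bp steps of distance from the 3' end, negative inside the gene. The lower panel plots GC content in the same steps. All 3 lines drop within 100 bp of the end, and most steps downstream lie above those upstream. Averaged over 1 kb each line is higher downstream, and GC content reaches its lowest value, 36.3%, in the last 100 bp of the gene.

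Ends within 100 bp of an open site carried the poly(A) hexamer about as often as other ends. Ends within 1 kb of one carried it slightly more often. Among the 100 regions within 100 bp, 76 belonged to a gene with a hexamer in its last 50 bases (76.0%, 95% Wilson interval 66.8 to 83.3). Over all genes with a region at the 3' end the share was 77.8% (1196 of 1538, 75.6 to 79.8). Over genes without one it was 73.6% (72.8 to 74.3). The last 30 bases of 3 of the highest-scoring of these ends, chosen after their values were seen, show the hexamer in capitals on the strand of the gene.
Ung, chr5:114139294-114139323, plus strand: caggctAATAAAagatggttgacaattggc
Triobp, chr15:79005840-79005869, plus strand: ctaacttAATAAAaccttccggcaactctg
Ndufa10, chr1:92439010-92439039, minus strand: taATTAAAacttaatgaaatttagcactca
Ung encodes the uracil-DNA glycosylase that starts base excision repair. Its region was centred 58 bp downstream of the end, scored 134 in replicate 1 and 119 in replicate 2, and its NFI match printed above overlaps the last bases of the gene. The region of Triobp, an actin-bundling protein of the inner ear and other tissues, was centred 98 bp upstream and scored 135 and 118. That of Ndufa10, a subunit of respiratory complex I, lay 11 bp upstream and scored 124 and 114. Not all of the highest such ends held a hexamer there. The next by score, those of Shf (123 and 122) and Gm21974 (119 and 126), had none in their last 30 bases.

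Scores of the regions at 3' ends were middling. The authors' peak score is a whole number without a stated meaning, so it was used as a rank within each list, and a region's lower percentile is the smaller of its score percentiles in replicates 1 and 2. The median score at 3' ends was 67 in replicate 1 (quartiles 47 and 95) and 61 in replicate 2 (43 and 85.5), and scores ran from 9 to 149 and from 10 to 143. All other distal regions had medians of 63 and 55, and those within 10 kb of a 3' end 66 and 60. The median lower percentile was 55.8 at 3' ends, 53.7 in the near set and 49.2 in all other distal regions. A lower percentile of 90 or more was reached by 86 regions at 3' ends, or 4.97%, close to the 4.61% of other distal regions. Across the 1731 regions the score percentiles of both replicates had Pearson r = 0.81 and Spearman rho = 0.83. This describes regions of the same libraries and not independent samples.

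**Figure D2:**
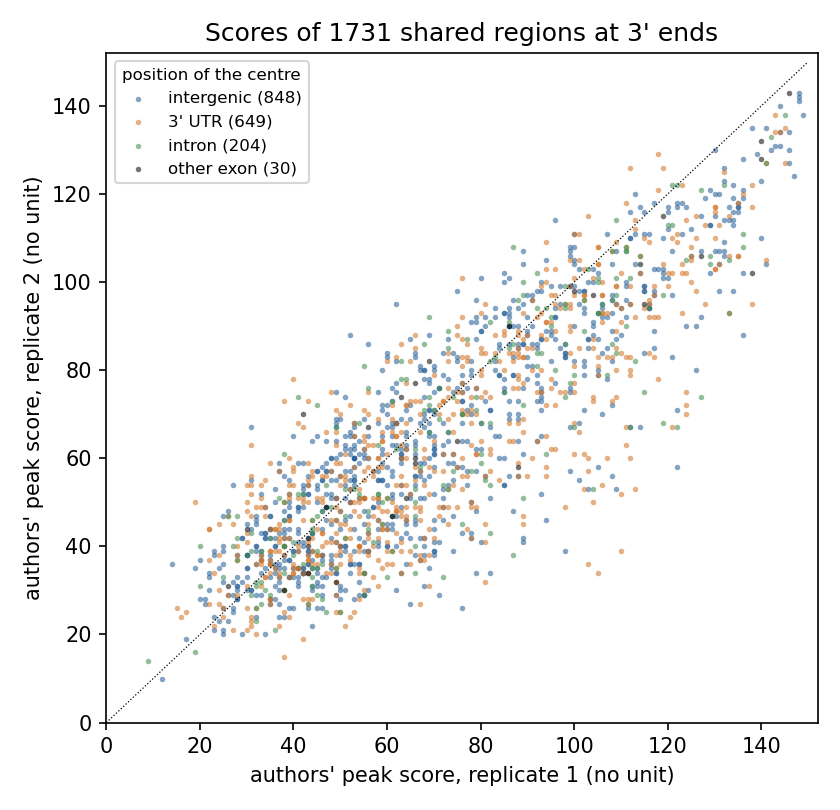
Each point is 1 of the 1731 regions, with the authors' peak score in replicate 1 on the horizontal axis and in replicate 2 on the vertical axis, both without a unit, and the dotted line marks equal scores. Colours give the position of the centre: 848 intergenic, 649 in a 3' UTR, 204 in an intron and 30 in another exon. The classes overlap over the whole range, and points farthest from the line lie on the side of replicate 1.

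The regions resembled other distal sites in most other respects. Their hotspots had a median width of 345 bp in replicate 1 and 325 bp in replicate 2, against 360 and 325 bp for other distal regions. The centre lay in a hotspot of both replicates for 1704 of the 1731. Median GC content was 52.7% against 50%, and the ratio of observed to expected CpG was 0.19 against 0.21. CpG-rich sequence (GC of at least 55% and a CpG ratio of at least 0.6) was found in 48 regions, 2.77%, against 1.68%. Another shared region lay within 1 kb of 40.6% of them, against 36.7%. A start annotated by RefSeq but not by GENCODE lay within 1 kb of 29 regions, 1.68%, fewer than the 3.31% of other distal regions. Without those 29 the median scores were again 67 and 61.

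By annotation, 848 regions (49.0%) were intergenic, 649 (37.5%) lay in a 3' UTR, 204 (11.8%) in an intron of any annotated transcript, and 30 (1.73%) in another exon. A 3' UTR held 1.13% and an intron 53.8% of all other distal regions, a contrast that the choice by position brings with it. Scores differed little between the classes. Median scores in replicates 1 and 2 were 66 and 61 for intergenic regions, 67 and 60 in 3' UTRs, and 71 and 67 in introns.

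The highest sites stood beside genes of unrelated function. Atf6b, a transcription factor of the response to unfolded protein in the endoplasmic reticulum, had a region 717 bp downstream (chr17:34655676-34655905) with scores of 148 in replicate 1 and 143 in replicate 2. Fhl3, a LIM-domain protein, had one 550 bp downstream (chr4:124709076-124709245) with 148 and 142. Both stood above the 99th percentile of each list, at 4164 and 5615 bp from the nearest TSS.

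Dnajb12, a co-chaperone of the endoplasmic reticulum membrane, followed with 149 and 138 at a site 489 bp downstream. Ctdsp1, a phosphatase that acts on the RNA polymerase II tail and hosts a microRNA in an intron, had 144 and 140 at 206 bp downstream. The region of Acvrl1, a receptor of the TGF-beta family best known from blood vessels, scored 146 and 134 at 335 bp, and that of Rrp1, a protein of ribosomal RNA processing, 144 and 134 at 883 bp. These sites too are intergenic.

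Inside genes, the 3' UTR of Wwc1 (KIBRA, a scaffold of the Hippo pathway) held a region of 143 and 138, centred 151 bp before the end. The 3' UTR of Shisa8, an auxiliary protein of AMPA glutamate receptors, held one of 145 and 135, and that of Itga10, a collagen-binding integrin subunit, one of 144 and 134. Ccdc97 had 143 and 134, also in its 3' UTR. Other high regions lay downstream of the named gene, in introns of other annotated transcripts. That of Cdk5r2, which encodes the neuronal Cdk5 activator p39, scored 145 and 138 at 869 bp. Atp6v1fnb had 142 and 133 at 566 bp and the amino acid enzyme Gcat 141 and 127 at 738 bp. The calcineurin subunit gene Ppp3r1 had 132 and 122 at 786 bp. The hotspot of Cdk5r2 was 6491 bp wide in replicate 1 and 3037 bp in replicate 2, against medians of 345 and 325 bp, so this site is part of a broad open stretch.

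One site among the 12 highest lies beside a transcript start in another annotation. Sf3b5, a subunit of the splicing complex SF3b, had a region of 146 and 143 centred 772 bp before its end and 3068 bp from the nearest GENCODE TSS, but 39 bp from a RefSeq start. The other 28 such regions were not high as a group: the median scores of all 29 were 66 and 63, and 1 of them had a lower percentile of 90 or more.

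Most genes had a single region. Of 20807 autosomal protein-coding genes, 15932 had at least 100 bp of allowed sequence around the 3' end and were eligible, and 1538 of these (9.65%, Wilson interval 9.20 to 10.1) had a region there. One region was found at 1270 genes, 2 at 221, 3 at 44, 4 at 2 and 5 at 1. Because genes can end close together, 107 regions lay in the window of more than 1 gene.

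The gene with 5 regions was Foxd1, a forkhead factor of kidney stroma and retina. In order of position they scored 67, 52, 46, 58 and 38 in replicate 1 and 57, 50, 50, 41 and 44 in replicate 2. All were of ordinary height, and the row of sites began 724 bp before the end and stopped 606 bp after it. Dctd, a deaminase of nucleotide metabolism, had 4 regions, whose scores in order of position were 105, 66, 58 and 117 in replicate 1 and 100, 62, 46 and 89 in replicate 2. Grm4, a metabotropic glutamate receptor, also had 4, with 30, 44, 113 and 46 in replicate 1 and 38, 36, 82 and 28 in replicate 2. Sncb, which encodes the neuronal protein beta-synuclein, had 3 regions of 128, 142 and 58 in replicate 1 and 119, 130 and 51 in replicate 2. Mrpl58, a peptide release factor of mitochondrial ribosomes, had 3 of 135, 120 and 139 in replicate 1 and 117, 116 and 129 in replicate 2. The intergenic sites of Sncb and Mrpl58 all scored 116 or more in both lists, while at Grm4 a high site stood beside low ones.

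Open 3' ends were more frequent at genes with an open promoter, meaning a shared region within 1 kb of any TSS of the gene. Of 9673 eligible genes with an open promoter, 1249 had a region at the 3' end, 12.9% (12.3 to 13.6). Of 6259 without, 289 had one, 4.62% (4.12 to 5.17). The ratio of these shares was 2.80 in shared regions, 2.96 in replicate 1 alone and 2.5 in replicate 2 alone. Per Mb of allowed sequence there were 97.2 and 34.8 regions, so that the second group had about the density of distal sequence elsewhere, 35.4 per Mb. The Wilson intervals do not overlap, but they cover counting error only and take genes as independent.

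The contrast was seen in each class of distance to the nearest TSS. Where the nearest TSS lay under 5 kb from the 3' end, the shares were 12.8% with an open and 3.80% without an open promoter. They were 14.2% and 5.41% at 5 to 10 kb, 12% and 5.49% at 10 to 50 kb, and 10.1% (17 of 168 genes) and 2.12% (5 of 236) beyond 50 kb. In genes longer than 100 kb, 10.8% with an open and 4.87% without an open promoter had a region. Their ends lie far from the outermost start of the gene, though not always from a later start. Whether these regions act on the gene, or whether genes with open promoters lie in parts of the genome that are open throughout, was not tested.

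The share of genes varied little with gene length, while the density fell. The share with a region was 8.55% under 5 kb, 10.0% at 5 to 20 kb, 10.5% at 20 to 50 kb, 8.93% at 50 to 100 kb and 8.68% above 100 kb. Per Mb of allowed sequence there were 99 regions under 5 kb, 79.3, 75.4 and 61.1 in the middle classes, and 55.1 above 100 kb. Genes whose 3' end faced that of a neighbour had a region in 162 of 1189 cases, 13.6% (11.8 to 15.7), against 9.33% (8.87 to 9.81) of the others, and such a site can count for both genes. Olfactory receptor genes, which are silent outside the nose with few exceptions, had one in 9 of 773 cases, 1.16% (0.614 to 2.20). Their allowed sequence held 10.5 regions per Mb, against 73.2 over all eligible genes. Reads can be hard to place in a large family of related genes, and the part of this in the low number was not tested.

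**Figure D3:**
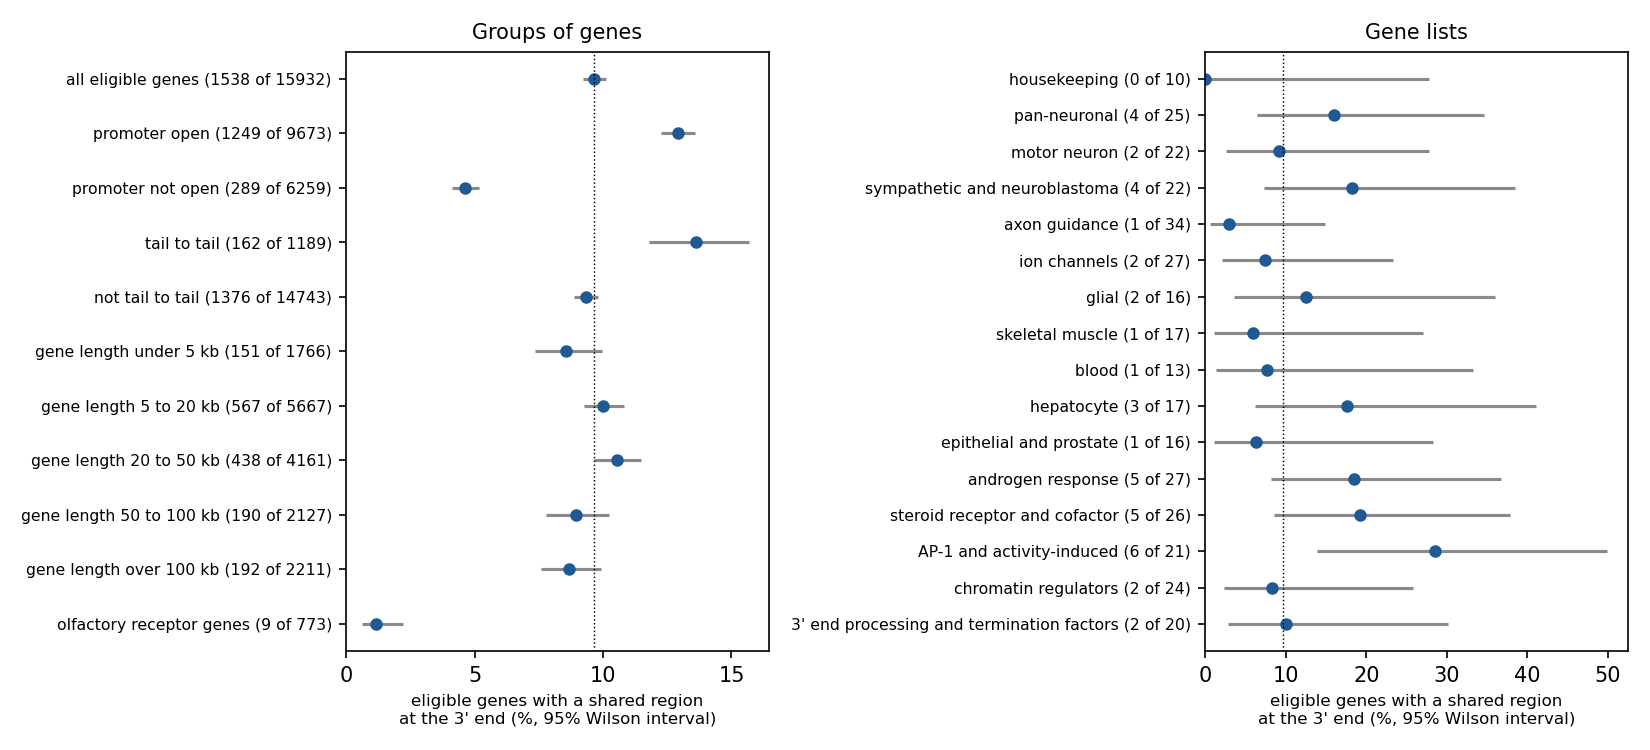
Points give the percentage of eligible genes with a shared region at the 3' end, with 95% Wilson intervals, for groups of genes on the left and for 16 gene lists on the right, and numbers in brackets give the genes counted. The dotted line marks the 9.65% of all eligible genes. Genes with an open promoter lie at 12.9% and those without at 4.62%, olfactory receptor genes lie lowest of the groups on the left at 1.16%, and the interval of each list but that of AP-1 and activity-induced genes includes the line.

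Lists of genes by function were read against the same 9.65%, as counts and without a test. Where all eligible genes of a list had an open promoter, as in the pan-neuronal list, 12.9% is the nearer comparison. All 29 autosomal pan-neuronal genes had an open promoter, against 60.8% of autosomal protein-coding genes. So did all eligible housekeeping genes (10), chromatin regulators (24) and 3' end processing factors (20). The pan-neuronal count alone does not tell the kind of cell. Promoters were open at 13 of 22 eligible motor neuron genes and 14 of 22 sympathetic and neuroblastoma genes. They were open at 16 of 34 axon guidance and 17 of 27 ion channel genes. Among other cell types the counts were 6 of 16 glial and 5 of 16 epithelial and prostate genes. Skeletal muscle had 4 of 17, hepatocyte 3 of 17 and blood 2 of 13. A region at the 3' end was found at 4 of 25 eligible pan-neuronal genes, 16.0% (6.40 to 34.7). The 3' UTR of Ina, the neuronal intermediate filament alpha-internexin, held a region of 130 in replicate 1 and 110 in replicate 2. Eno2, the neuronal enolase, had one of 99 and 106, and Vamp2, the synaptic vesicle SNARE, one of 79 and 87, both downstream. Stmn1, a tubulin-binding protein of growing neurons, had one of 78 and 42.

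Of 22 eligible motor neuron genes, 2 had a region. Lhx4, a LIM homeodomain factor of motor neuron progenitors, had one of 131 and 104 in its 3' UTR. Mnx1, the homeodomain factor that marks motor neurons, had a pair downstream, of 39 and 30 in replicate 1 and 49 and 30 in replicate 2, low in both lists. Among sympathetic and neuroblastoma genes the count was 4 of 22. Slc18a1, the vesicular monoamine transporter of chromaffin cells, had 2 regions in its 3' UTR, of 107 and 110 in replicate 1 and 93 and 91 in replicate 2. Dbh, the enzyme that makes noradrenaline, had one of 95 and 89 downstream.

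Axon guidance and ion channel genes were the other neuronal lists. Of 34 axon guidance genes, 1 had regions: Efna2, an ephrin ligand, with 3 downstream that scored 58, 98 and 88 in replicate 1 and 57, 83 and 94 in replicate 2. Of 27 ion channel genes, 2 had one. A site of 89 and 86 lay downstream of Kcnd3, an A-type potassium channel. The shares, 2.94% (0.521 to 14.9) and 7.41% (2.06 to 23.4), have intervals that include 9.65%.

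The list with the highest share was that of AP-1 and activity-induced genes, the immediate early genes that neurons and other cells switch on after stimulation. A region was found at 6 of 21, 28.6% (13.8 to 50), and all 21 had an open promoter, so 12.9% is the nearer comparison. The 3' UTR of Arc, a synaptic protein made on activity, held a region of 141 in replicate 1 and 105 in replicate 2. Dusp4, a phosphatase that turns off MAP kinases, had one of 120 and 112 downstream. Klf4, a zinc finger factor, had one of 60 and 67, and Fos, the AP-1 subunit, one of 56 and 65. The sites of Egr1 (63 and 47) and Ier5 (50 and 40) lay in 3' UTRs and were low. Of the 6, only the sites of Arc and Dusp4 were above the medians of 67 and 61 in both lists.

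Genes that respond to androgen had a region in 5 of 27 cases, 18.5% (8.18 to 36.7), and steroid receptors with their cofactors in 5 of 26, 19.2% (8.51 to 37.9). Per1, a clock gene induced by steroid hormones, had 2 downstream, of 88 and 102 in replicate 1 and 90 and 93 in replicate 2. Slc45a3, the prostate transporter prostein, had one of 88 and 96, and Slc38a2, an amino acid transporter, one of 49 and 38. Ncoa3, a nuclear receptor coactivator, had one 69 bp past its end with 76 and 101, and Gata2, a factor that aids androgen receptor binding in prostate, one of 68 and 59. The pioneer factor gene Foxa1 had one of 78 and 50. With no untreated library, none of these levels can be called a response.

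The remaining lists hold genes of processes that every cell needs, or of other cell types. None of 10 eligible housekeeping genes had a region (Wilson interval 0 to 27.8%). Chromatin regulators had one in 2 of 24 cases, with scores of 97 and 95 at Tnrc18. Factors of 3' end processing had one in 2 of 20. Clp1, an RNA kinase of the cleavage complex, had a site of 78 and 82, and Papola, the poly(A) polymerase itself, one of 43 and 52.

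Lists of other cell types were included as a contrast to neuronal genes. Hepatocyte genes had a region in 3 of 17 cases, 17.6% (6.19 to 41.0). Among them were Foxa3 with 72 and 51 and the gluconeogenic enzyme Pck1 with 21 and 28. Glial genes had one in 2 of 16, 12.5% (3.50 to 36.0). These were the microglial receptor gene Csf1r (71 and 47) and the astrocyte glutamate transporter Slc1a3 (32 and 45). Single genes were found among skeletal muscle (Myod1, 77 and 64, of 17), blood (Vav1, 78 and 74, of 13) and epithelial and prostate genes (Elf3, 32 and 26, of 16). Open 3' ends thus occurred at genes of unrelated tissues, among them Myod1, a master regulator of muscle. The hepatocyte share was no lower than the pan-neuronal share of 16.0%, and the intervals of both include 9.65%.

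In DNA sequence, CTCF matches were more frequent in the regions at 3' ends than in all other distal regions, and about as frequent as in those within 10 kb of a 3' end. A match lay in the central 150 bp of 307 regions, 17.7% (16.0 to 19.6), against 11.6% of all other distal regions and 17.9% (17.2 to 18.6) of those within 10 kb of a 3' end. In flanks 1 kb downstream and 1 kb upstream the shares were 0.982% and 0.693%. Regions with the match scored higher, with medians of 76 in replicate 1 and 78 in replicate 2, against 66 and 57 without it. Among regions with a lower percentile of 75 or more, 24.1% (106 of 439) held a match, and among those under 25, 13.1% (32 of 244). The match lay on the strand of the gene in 180 of the 307, 58.6% (53.0 to 64.0).

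The 4 highest of these regions, whose matches are printed above, scored as follows. Ccdc97 had 143 in replicate 1 and 134 in replicate 2. Ripor1, an inhibitor of the GTPase RhoA, had 127 and 121 at 302 bp downstream, in an intron. Csrp1, a LIM protein of smooth muscle, had 134 and 116 at 899 bp downstream, and the 3' UTR of Ror2, a receptor of Wnt5a, held one of 126 and 110. The promoter of Ror2 had no shared region, whereas those of the other 3 genes did.

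AP-1 matches were found in 264 regions, 15.3% (13.6 to 17.0), against 17.7% of other distal regions and 15.8% of the near set. The flanks held 4.45% downstream and 2.72% upstream. Behind Fhl3 and Ccdc97, the highest were Dlx2, a homeodomain factor of forebrain interneurons, with 141 in replicate 1 and 135 in replicate 2 at 257 bp downstream, and Gcgr, the glucagon receptor, with 143 and 131 at 545 bp. Regions with an AP-1 match had median scores of 66 and 57, and regions without one 68 and 62.

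NFI matches lay in 52 regions (3.0%, against 3.33%) and EBF matches in 36 (2.08%, against 2.21%), both near the share of other distal regions. The downstream flanks held 0.520% and 0.462%. The highest NFI regions were those of Shisa8 (145 and 135), Ung (134 and 119), Lhfpl4, a protein that holds GABA receptors at inhibitory synapses (119 and 110), and Cst6, a protease inhibitor (135 and 106). The highest EBF regions were those of the endothelial gene Plvap (138 and 117), Ccdc184 (135 and 117), the LRP chaperone Mesd (121 and 102) and A4galt, the enzyme that makes the glycolipid Gb3 (109 and 109). RFX matches were in 15 regions, 0.867%, against 0.937%.

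The androgen response element was not more frequent at 3' ends than in other distal regions. It lay in 45 regions, 2.60% (1.95 to 3.46), against 3.52% of other distal regions, and the flanks held 1.5% downstream and 1.16% upstream. Median scores of the 45 regions were 53 in replicate 1 and 59 in replicate 2, and those of the rest 67 and 61. The highest were Rrp1 (144 and 134), Smarcd1, a subunit of the BAF remodelling complex (132 and 114), Dand5, an antagonist of Nodal (121 and 110), and the growth factor gene Tgfb3 (125 and 106). Each of the 4 printed matches has 2 mismatches.

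Short motifs of promoters and of developmental factors gave a mixed picture. GC boxes lay in 133 regions, 7.68% (6.52 to 9.03), against 4.72% of other distal regions and 5.73% of the near set. Regions with a GC box had medians of 86 in replicate 1 and 75 in replicate 2, against 66 and 60 without. ETS matches (CCGGAAG) were in 27 regions, 1.56% (1.07 to 2.26), against 1.06% of other distal regions and 1.12% of the near set. Median scores of the 27 were 98 and 89. The NEUROD-type E-box was in 19.5%, against 20.9%, and in 12.7% of downstream flanks. Matches of GATA factors, read as AGATAA, and homeodomain matches, read as TAATTA, were less frequent than in other distal regions, 6.99% against 9.63% and 3.52% against 5.47%. Regions within 10 kb of a 3' end held 7.92% and 4.27%, within the intervals at 3' ends (5.88 to 8.29 and 2.75 to 4.5). CCAAT boxes of NFY (16.9%, and 17.2% in downstream flanks) and GATA matches (7.45% in downstream flanks) were about as frequent in the regions as beside them, with 15.8% and 7.11% in upstream flanks. The cyclic AMP element TGACGTCA was in 7 regions (0.404%, against 0.465% of other distal regions). The motif of NRF1 was in 5 (0.289%, against 0.369%) and that of YY1 also in 5 (against 0.321%).

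**Figure D4:**
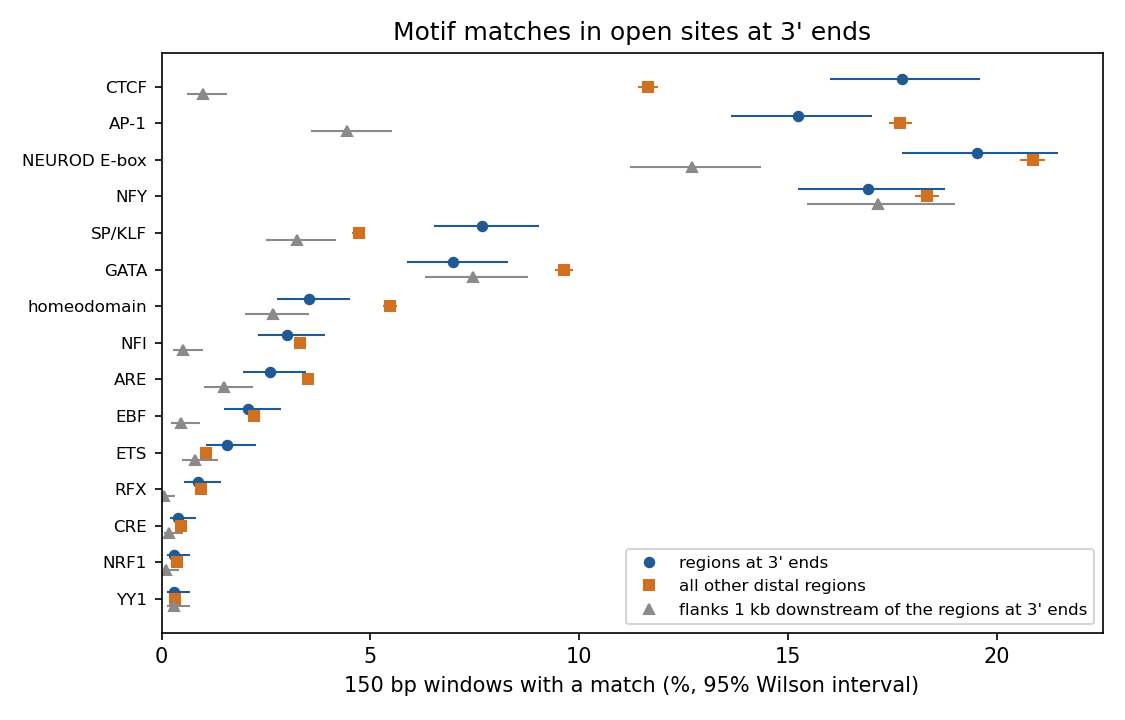
For each of 15 motifs, points give the percentage of 150 bp windows with a match and its 95% Wilson interval, in the 1731 regions at 3' ends (blue), in all 70975 other distal regions (orange) and in flanks 1 kb downstream of the regions at 3' ends (grey). CTCF stands at 17.7%, 11.6% and 0.982% and AP-1 at 15.3%, 17.7% and 4.45%, while the 3 values of NFY lie together.

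By counts of motifs, 526 regions held none of the 15, 783 held 1, 345 held 2, 72 held 3 and 5 held 4. At least 1 of CTCF, AP-1, NFI, EBF, RFX, ARE and the cyclic AMP element was in 39.5% (37.2 to 41.8), against 37.5% of other distal regions.

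The replicates shared about as many peaks at 3' ends as elsewhere. Of the peaks placed at 3' ends by the rule, 67.9% of replicate 1 overlapped a peak of replicate 2. In the other direction, 75.6% of replicate 2 overlapped one of replicate 1 (mean 71.7%). For other distal peaks these shares were 64.9% and 75.4% (mean 70.2%). Each pair of shares gives both sides of the same overlap, so they are not independent measurements and no spread is given. Within replicate 1 the share was somewhat higher at 3' ends, with intervals of 66.1 to 69.6 against 64.6 to 65.2. Within replicate 2 it was close, with intervals of 73.8 to 77.3 against 75.2 to 75.7. Replicate 1 has the longer list, 189648 distinct peaks against 170745, and read numbers were not analysed here, so depth is unknown.

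Where the scores of a shared region differed between replicates, the motifs differed too. The percentile was more than 25 points higher in replicate 1 at 117 regions (6.76%, against 8.65% of other distal regions) and in replicate 2 at 49 (2.83%, against 3.35%). CTCF matches lay in 2 of the 117, 1.71% (0.470 to 6.02), and in 15 of the 49, 30.6% (19.5 to 44.5). AP-1 matches went the other way, with 24 of 117, 20.5% (14.2 to 28.7), and 3 of 49, 6.12% (2.10 to 16.5). EBF matches lay in 8 of 117 (6.84%) and in 1 of 49, and androgen response elements in 1 of 117 and in 3 of 49.

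Contrasts of the same direction were found away from 3' ends. Among other distal regions, CTCF matches lay in 0.733% of 6142 that were higher in replicate 1 and in 25.8% of 2376 that were higher in replicate 2. AP-1 matches lay in 21.1% and 10.4%, EBF matches in 4.77% and 0.547%, and androgen response elements in 0.814% and 11.3%. The contrast was thus not confined to 3' ends, and its cause was not tested. Median GC content was 53.3% in the 117 regions and 48.7% in the 49, and the part of base composition in these contrasts was not tested. Both libraries carry the same treatment label.

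A gap of more than 50 points was seen in 5 regions, all higher in replicate 1. The 4 with the highest lower percentile lay in 3' UTRs. Mta3, a subunit of the NuRD remodelling complex, had 110 in replicate 1 and 39 in replicate 2. Dpf3, a histone reader of the BAF complex, had 103 and 36, Hdhd2 had 105 and 34, and Naa60, an acetyltransferase of the Golgi, had 81 and 32. None of the 4 held a CTCF match.

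**Figure D5:**
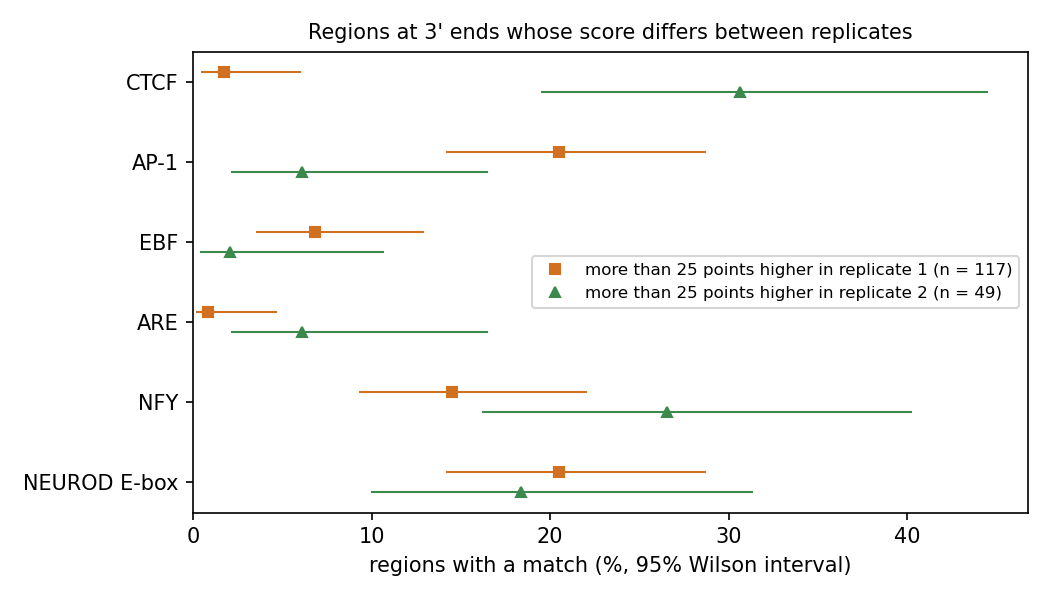
Points give the percentage of regions at 3' ends with a match of 6 motifs, with 95% Wilson intervals, for the 117 regions whose percentile was more than 25 points higher in replicate 1 (orange squares) and the 49 more than 25 points higher in replicate 2 (green triangles). CTCF lies at 1.71% and 30.6% without overlap of the intervals, AP-1 at 20.5% and 6.12%, and the E-box at 20.5% and 18.4%.

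Median scores differed little across the limits of the rule. The 173 regions at 900 to 1000 bp from a 3' end had median scores of 64 and 61, and the 184 up to 100 bp outside that limit 62 and 57.5. The 165 regions 2500 to 3000 bp from a TSS had medians of 71 and 63, and the 202 at 2000 to 2500 bp, left out, 64 and 61.5. The last regions inside were those of Chac1 (1000 bp downstream, 98 and 84), Vipr2 (1000 bp upstream, 24 and 38) and Muc4 (1000 bp downstream, 30 and 38). The first outside were those of Bcl2l12 (1001 bp downstream, 58 and 34), Nmt1 (1001 bp upstream, 104 and 83) and Nedd4 (1001 bp upstream, 37 and 31).

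Along the genome, the number of regions per 100 eligible genes was highest on chromosomes 15 (17.0), 11 (16.8) and 8 (15.9). It was lowest on chromosomes 18 (6.86) and 16 (7.27), with 10.9 over all autosomes.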

How the data were processed

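Per the labels, the data are DNase-seq of 2 biological replicates on assembly mm10, and peaks and hotspots were deposited per library, not pooled. Neither aligner nor peak caller is named in the sources used here. The authors deposited a whole-number score for each 150 bp peak, used as a rank within its list. Hotspots carry a −log10 false discovery rate deposited by the authors, which was not used here beyond the intervals. Repeated entries, 15 and 26 in the lists of replicates 1 and 2, were dropped. The reference was GRCm38, the same assembly as mm10, and all intervals lay within its chromosomes. Positions count from 1.

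Densities are per Mb of autosomal sequence, without assembly gaps, where a 150 bp peak could meet the rule. Motifs were sought on both strands, and overlapping matches of different motifs count for each. RFX was allowed 2 mismatches, NRF1 and YY1 1 mismatch, and the short motifs none. The hexamer was sought on the gene's strand. Wilson intervals at 95% cover counting error only. Absence of a peak does not show closed chromatin. Python 3.11.15, numpy 2.4.6, scipy 1.17.1, pandas 2.3.3 and matplotlib 3.10.9 were used, and the counting steps were tested on simulated data.

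Genes were named by rule: the 12 highest regions by lower percentile, the 5 genes with most regions, the 3 highest genes of each list, the 4 highest regions per position class, per printed motif and among those differing by more than 50 points, and the 3 regions nearest each side of the 1 kb limit. Some further list members were named to complete small counts. Results of some genes that the rule takes are not reported here. The members, lists and rules were chosen with earlier results of these data known. The dip at 3' ends, the split by promoter state and the ends printed there were chosen after seeing the data.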

Additional observations from a re-analysis of the deposited data

Results flagged for a closer look

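Chromosome X was left out by the rule but held such sites. There, 21 shared regions met the other conditions around the 3' ends of 759 eligible genes, 2.77 per 100 genes against 10.9 on the autosomes, with median scores of 52 in replicate 1 and 53 in replicate 2. They were picked out as a signal in data the report did not use. Chromosome Y held 0. The difference from the autosomes was not tested.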

How the results depend on the processing

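No paired analysis was possible because both libraries belong to 1 group. The density ratio, the dip and the ratio of open to not open promoters kept their direction under the alternatives run. The other main results are a count, shares and a median, for which no direction was assessed. By the limits used, 30 values of main results moved and 35 stayed the same. The limit was the spread of the replicates, or a fixed factor for the number of regions. Of the motif shares against flanks, NFY went from 0.987 of the downstream flank to 1.07 times the upstream flank, and YY1 from a ratio of 1 to 1.67. With the merged peaks of 1 replicate only, the number of regions was 2288 to 2569, the share of genes 12.1% to 13.6%, the ratio of open to not open promoters 2.5 to 2.96, the density ratio 1.93 to 2.00, the dip 0.508 to 0.651, the median percentile 50.3 to 50.5 and the CTCF share 12.3% to 15.1%. With the stronger 50% of peaks there were 987 regions at 5.87% of genes, with a density ratio of 2.33, a median percentile of 72.4 and a CTCF share of 22.3%. A window of 500 bp gave 858 regions, 5.56% of genes and a density ratio of 1.93. A window of 2 kb gave 3374 regions, 15.3% of genes and a median percentile of 54.8. With the 3' ends of all protein-coding transcripts, 12.8% of genes had a region, the promoter ratio was 3.13, the density ratio 1.91, the dip 0.621 and the median percentile 53.7. More than 5 kb from any TSS there were 1037 regions, with a density ratio of 1.93 and a median percentile of 54.3. The median percentile was 55.9 at an overlap of 75 bp and 55.2 with starts of protein-coding genes only. With exact matches only, the CTCF share was 6.47%. Asking only for the centre to lie outside CDS, an alternative chosen after seeing the data, gave 1818 regions. The causes of these shifts were not tested, beyond the smaller or larger sets that the settings make. Depth is unknown, so weak sites found in 1 replicate cannot be called absent from the other.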
